A study of Rattus norvegicus with 18 samples.

Results

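The mitochondrial ribosomal protein genes of the rat were described in liver over the days around birth. The members were the genes whose single symbol on the array annotation was Mrpl or Mrps followed by digits, and for each gene the transcript cluster (all probes along 1 gene, summarised to 1 value) with the highest mean was used. The rule found 78 clusters of 76 genes among 18926 genes with a single symbol. Of these, 46 encode proteins of the large subunit and 25 proteins of the small subunit. The other 5 carry copy or pseudogene symbols (Mrpl42-ps2, Mrps11-ps1, Mrps18b-ps1, Mrpl41l1 and Mrps21l). Another 4 clusters that list an Mrpl or Mrps symbol together with a second symbol were left out. They carry Mrpl53, Mrps34, Mrps35 and Mrpl33. Mrpl53 and Mrps34 are members through another cluster, whereas Mrps35 and Mrpl33 are not among the 76 genes. Liver of Sprague Dawley rats was measured on 18 Affymetrix Rat Transcriptome 1.0 arrays, with 3 arrays from separate dams at each of 6 ages. The fetuses of embryonic day 21 (E21) were taken by C-section and decapitated before they had breathed, and the pups were taken 30 min, 4 h, 12 h, 1 d and 7 d after a birth that had been watched. No group was treated and no genotype was given. Neither the number of pups in a sample nor their sex was given.

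Mitochondria keep a small genome of their own, and its messenger RNAs, which encode core subunits of the respiratory chain and of ATP synthase, are read by a dedicated ribosome inside the organelle. All proteins of that ribosome are encoded in the nucleus, made in the cytosol and imported, whereas the ribosomal RNA they bind is made in the organelle. Some of the proteins have counterparts in the bacterial ribosome and others are found in mitochondria only. The liver passes at birth to breathing, milk fat and gluconeogenesis, a time when its mitochondria are known to mature.

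Promoter sequences are shown first because nuclear genes for mitochondrial proteins are known for sites of NRF1, GABPA (NRF2) and YY1. RefSeq promoters of the GRCr8 build were held for 59 of the 76 members, and each was searched on both strands from 250 bases before to 50 bases after the start. The letters CGCANGCG, the core of the NRF1 site, stood in 15 of the 59 members (25.4%), in 11.9% of the 15083 tested genes with a promoter and in 8.19% of all 27457 promoters. CCGGAAG, the core bound by GABPA and related ETS proteins, stood in 18 members (30.5%), in 12.5% of tested genes and in 9.21% of all promoters. AAGATGGC, the core of the YY1 site, stood in 14 members (23.7%), in 4.06% of tested genes and in 3.41% of all promoters. At least 1 of the 3 stood in 35 members (59.3%) and in 24.3% of tested genes, and 11 members held more than 1 of them. The E-box CACGTG, bound by Myc among others, stood in 6 members (10.2%) and in 7.82% of tested genes and 6.63% of all promoters. The estrogen-related receptor letters TCAAGGTCA stood in 0 of the 59 members, in 0.292% of tested genes and in 0.397% of all promoters. The median GC content of the windows was 56.0% in the members, 57.3% in the tested genes and 52.3% in all promoters. A match of letters describes the sequence and does not show that a factor bound it.

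The 250 bases before the start are printed for 4 members that are described below and that hold such letters, to show how differently the same letters are placed. They are Mrpl57 (chr15:36086207-36086456, plus strand), Mrpl10 (chr10:82522220-82522469, plus strand), Mrps18a (chr9:22367381-22367630, minus strand) and Mrps31 (chr16:76324066-76324315, minus strand), each read 5′ to 3′ on the gene's own strand. Capitals mark the letters of NRF1 or GABPA on either strand.
Mrpl57: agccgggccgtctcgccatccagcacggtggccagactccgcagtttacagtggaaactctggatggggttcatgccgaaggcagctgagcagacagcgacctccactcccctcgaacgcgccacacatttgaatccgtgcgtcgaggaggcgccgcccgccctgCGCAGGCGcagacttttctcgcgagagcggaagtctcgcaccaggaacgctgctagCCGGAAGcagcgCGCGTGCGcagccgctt
Mrpl10: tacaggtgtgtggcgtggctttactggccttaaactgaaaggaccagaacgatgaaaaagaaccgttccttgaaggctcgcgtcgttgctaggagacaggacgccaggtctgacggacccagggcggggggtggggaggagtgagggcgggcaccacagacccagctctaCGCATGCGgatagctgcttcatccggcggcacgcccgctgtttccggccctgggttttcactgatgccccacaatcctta
Mrps18a: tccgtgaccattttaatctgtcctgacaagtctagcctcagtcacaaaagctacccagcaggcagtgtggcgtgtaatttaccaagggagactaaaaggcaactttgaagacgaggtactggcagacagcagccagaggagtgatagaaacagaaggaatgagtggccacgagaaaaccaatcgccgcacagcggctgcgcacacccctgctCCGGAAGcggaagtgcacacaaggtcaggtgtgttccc
Mrps31: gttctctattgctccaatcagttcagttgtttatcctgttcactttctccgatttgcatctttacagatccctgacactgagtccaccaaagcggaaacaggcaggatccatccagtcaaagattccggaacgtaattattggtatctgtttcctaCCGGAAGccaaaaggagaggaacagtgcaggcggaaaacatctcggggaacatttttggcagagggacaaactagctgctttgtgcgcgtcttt
In the printed bases Mrpl57 carries NRF1 letters on both sides of a GABPA match close to the start. Mrpl10 carries a single NRF1 match there, and Mrps18a and Mrps31 a single GABPA match each. Mrps18a also holds YY1 letters, which begin at base 1 after the start and so lie outside the printed bases.

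Levels are log2 values of the deposited intensities, and a change is the later mean minus the earlier mean on that scale. Changes were tested with limma across all 18926 genes, and a gene passed where its Benjamini-Hochberg adjusted p was under 0.05. Whole liver was measured, so fewer cells of a type and less RNA per cell cannot be told apart. Array medians of the deposited intensity lay between 61.9 and 65.5. After the data were seen, 3 arrays were taken to stand apart over all genes from the others of their age, with no threshold stated. They were E21 array 1, 30 min array 3 and 4 h array 3, and counts without them are given where they differ. The hepatocyte markers Alb, Ttr, Apoa1 and others were found for 7 of 8 listed genes, and their summed intensity was 3260480 to 3940832 over the 18 arrays. The lowest intensity of the table was 4.24, so a marker value above 0 does not show that its cell type was present.

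The mitoribosomal genes as a group moved little over these ages. The moderated F test over the 6 ages was passed by 15 of the 76 members (19.7%), against 31.3% of all genes. Without the 3 arrays that stood apart it was passed by 12 members and 5647 genes, beside 15 and 5931 with every array. Among genes with a mean log2 of at least 6 it was passed by 17 of 69 members and 5651 of 10265 genes. Between the highest and the lowest age mean, the members had a median span of 0.47 on the log2 scale, and the median of all genes was 0.42. A span above 1 was found for 3 members (3.95%), Mrps31, Mrpl38 and Mrpl47, and for 17.0% of all genes. Counting the F test and the 9 comparisons between ages together, 22 members passed at least 1 test and 54 passed none, against 36.9% of all genes that passed at least 1. There were 32 calls of members between ages. The members with the narrowest spans were Mrpl39 with 0.11 and Mrps14 with 0.13, both named here after their values were seen.

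Measured against E21, the median member changed by -0.02 at 30 min, -0.01 at 4 h, 0.08 at 12 h, 0.11 at 1 d and 0.12 at 7 d, while the median of all genes stayed between -0.01 and 0.01. In the fit of genes with a mean log2 of at least 6, the median member changed by 0.07 at 12 h, 0.11 at 1 d and 0.1 at 7 d. The median of all genes in that fit was 0.04, 0.09 and 0.03 at these ages. With quantile normalization the median member changed by 0.02 at 12 h, 0.03 at 1 d and 0.1 at 7 d. The number of members with a positive difference was 34 of 76 at 30 min, 36 at 4 h, 49 at 12 h, 52 at 1 d and 47 at 7 d. These 5 comparisons share the E21 arrays. Single arrays did not all follow the age means. The median difference of the members from the E21 mean was 0.16, 0.15 and -0.09 on the 12 h arrays, 0.04, 0.04 and 0.23 on the 1 d arrays, and 0.28, 0.05 and 0.02 on the 7 d arrays, against -0.02, -0.08 and 0.08 on the E21 arrays themselves. The 12 h, 1 d and 7 d arrays thus overlapped the E21 arrays in this measure. The highest age mean fell on 7 d for 27 members (35.5%, against 27.8% of all genes), on 1 d for 17 (22.4%, against 14.1%), on 12 h for 14 (18.4%, against 14.6%), on 4 h for 7 (9.21%, against 17.7%), on 30 min for 2 (2.63%, against 10.7%) and on E21 for 9 (11.8%, against 15.1%).

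**Figure D1:**
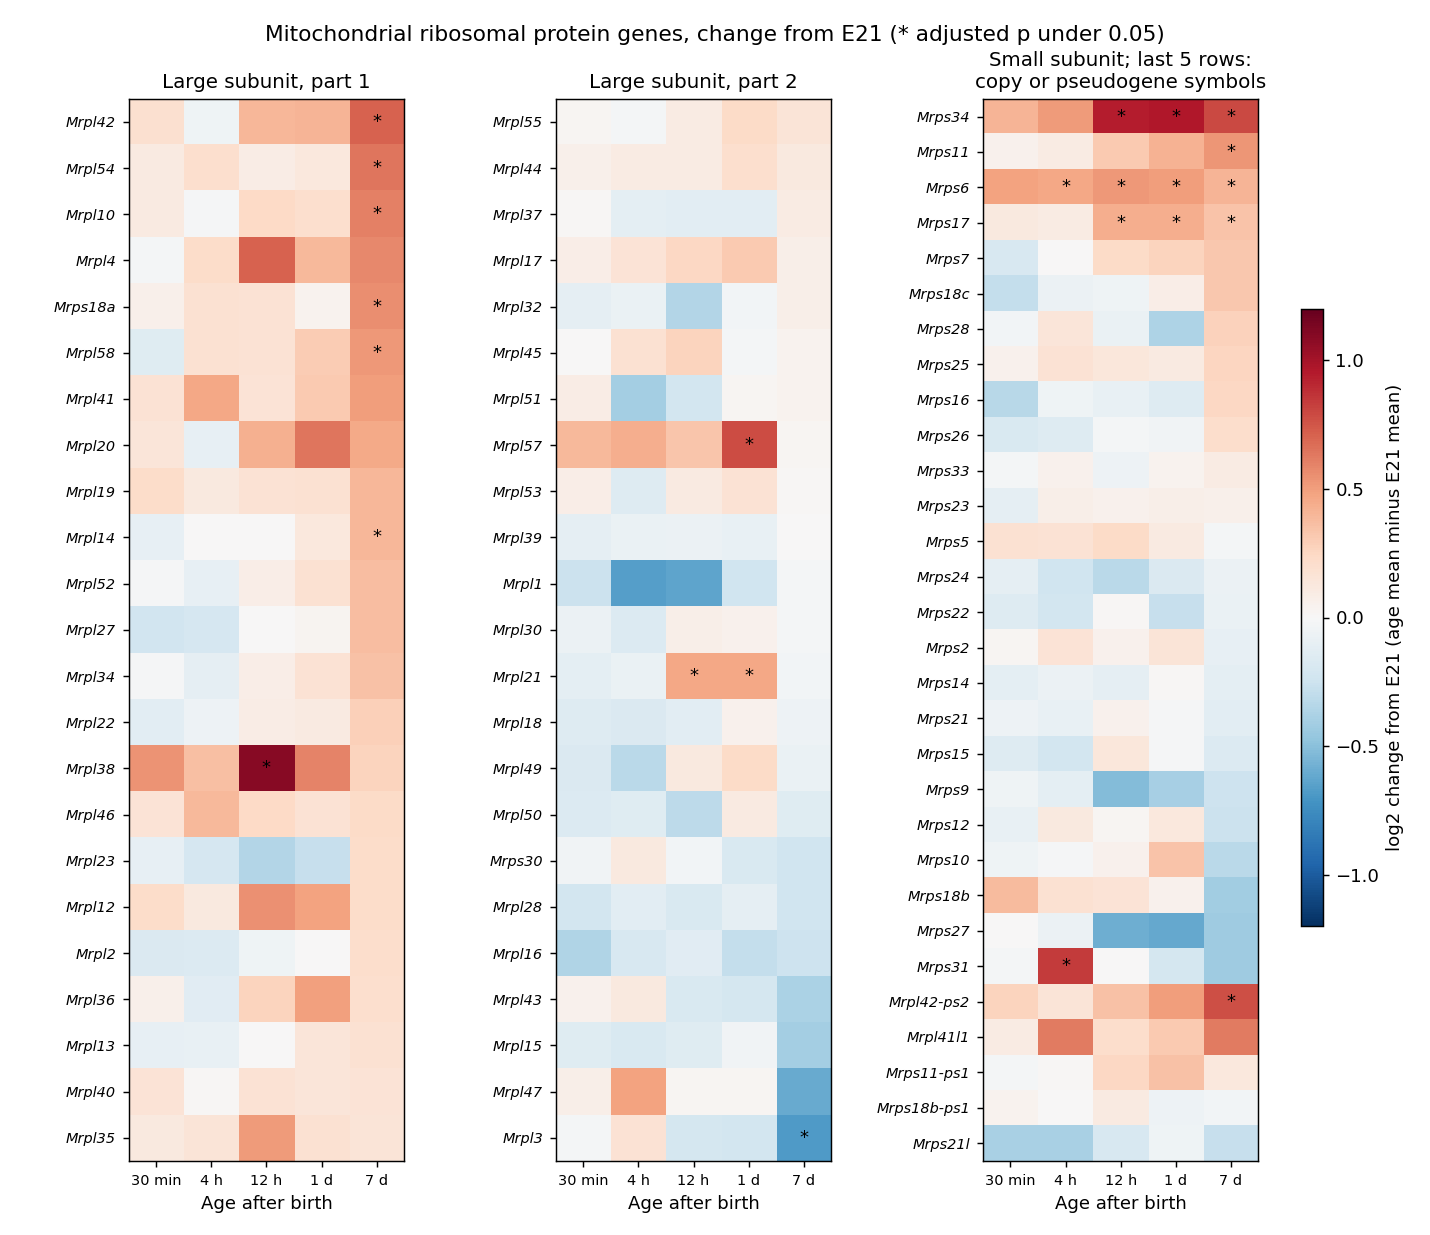
Each row is a mitoribosomal gene and each column an age after birth; colour gives the age mean minus the E21 mean in log2 units (3 arrays each), and a star marks an adjusted p under 0.05 in limma. Rows within a subunit are ordered by the 7 d difference; Mrps34, Mrps6 and Mrps17 are starred at 12 h, 1 d and 7 d, and Mrpl3 is the starred gene with a negative difference.

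No member passed by 30 min. At that age, 0 of 76 members were higher and 0 lower than at E21, and among all genes 0% were higher and 0% lower by the same rule in limma. At an unadjusted p under 0.05 there were 4 members and 1392 genes, and 0 members passed in every other fit that was run. Mrps6, a small-subunit protein with a bacterial counterpart, had the log2 levels 6.54, 6.63 and 6.69 at 30 min, against 6.02, 6.28 and 6.12 at E21. These arrays did not overlap, and the change was 0.48 ± 0.12 (SE, n = 3 arrays each; limma adjusted p = 0.323).

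At 4 h, 2 members were higher than at E21 and 0 lower, against 2.91% of all genes higher and 1.81% lower. Both belong to the small subunit. Mrps31, a protein found in mitochondrial ribosomes only, had 8.82, 8.45 and 7.68 at 4 h, against 7.60, 7.39 and 7.42 at E21. All 4 h arrays lay above all E21 arrays, with the third of them close to the E21 range, and the change was 0.85 ± 0.22 (1.8-fold, adjusted p = 0.0427). Mrps6 had 6.58, 6.67 and 6.55 at 4 h, against 6.02, 6.28 and 6.12 at E21, again without overlap (0.46 ± 0.12, 1.38-fold, adjusted p = 0.044). The Mrps31 call ended without any single one of the E21 arrays or of 4 h arrays 1 and 2 (adjusted p up to 0.186). The Mrps6 call ended without any single one of the 6 arrays (adjusted p up to 0.166). Same-numbered arrays of these 2 ages deviated together, and with the replicate number as a block in a fit of the 2 ages 0 members passed, as also without the block in that fit. In the step from 30 min to 4 h, 0 members were higher and 0 lower in limma, against 0.518% and 0.465% of all genes. There 2 members and 2146 genes had an unadjusted p under 0.05, and 1 member passed with array weights and 1 without the 3 arrays that stood apart.

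After 4 h Mrps31 was low again. It had 7.44, 7.50 and 7.48 at 12 h, 7.10, 7.21 and 7.46 at 1 d and 7.26, 6.87 and 6.98 at 7 d, and its highest age mean was 8.31 at 4 h and its lowest 7.04 at 7 d, the widest span among the members (1.28, F test adjusted p = 0.00612). At 12 h it was lower than at 4 h by -0.84 ± 0.22 on the log2 scale (adjusted p = 0.0274). That call ended without any single one of 4 h arrays 1 and 2 or of the 12 h arrays (adjusted p up to 0.14).

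The step from 4 h to 12 h held 2 members that were higher and 1 that was lower, against 5.08% and 3.82% of all genes. Mrpl21, a large-subunit protein with a bacterial counterpart, had 9.58, 9.52 and 9.26 at 12 h, against 8.85, 9.02 and 8.86 at 4 h, with no overlap. It rose by 0.54 ± 0.12 (1.45-fold, adjusted p = 0.0106), a call that ended without 12 h array 1 (adjusted p = 0.0606). Mrpl49, a large-subunit protein specific to mitochondria, had 7.41, 7.65 and 7.41 at 12 h, against 7.02, 6.86 and 7.28 at 4 h. It rose by 0.43 ± 0.13 (adjusted p = 0.0447), and the call ended without any single one of 4 h arrays 1 and 2 or of the 12 h arrays (adjusted p up to 0.188). Same-numbered arrays of 12 h and 4 h also deviated together, and 0 members passed in the fit of the 2 ages with the replicate number as a block, as also without it. With array medians subtracted, or with quantile normalization, 1 member was higher and 1 lower. From 12 h to 1 d, 0 members were higher and 0 lower in limma, against 0.0106% and 0.0264% of all genes. In that step 2 members and 1213 genes had an unadjusted p under 0.05, and 0 members passed in every other fit that was run.

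At 12 h, 5 members were higher than at E21 and 0 lower, against 3.86% and 2.08% of all genes. At 1 d, again 5 members were higher and 0 lower, against 3.37% and 1.71%. In the fit of genes with a mean log2 of at least 6, 5 of 69 members were higher and 0 lower at each of these ages. Of the 10265 genes in that fit, 1215 passed at 12 h and 1130 at 1 d, in either direction. Mrps34, a small-subunit protein specific to mitochondria that is known from human disease of mitochondrial translation, had 8.04, 7.55 and 7.67 at E21, 8.37, 8.30 and 7.82 at 30 min, 8.23, 8.28 and 8.27 at 4 h, 8.94, 8.79 and 8.33 at 12 h, 8.37, 8.44 and 9.31 at 1 d, and 8.84, 8.28 and 8.49 at 7 d. Every array from 4 h on lay above every E21 array. The change from E21 was 0.51 ± 0.24 at 4 h (adjusted p = 0.293), 0.93 ± 0.24 at 12 h (1.91-fold, adjusted p = 0.0325), 0.95 ± 0.24 at 1 d (1.94-fold, adjusted p = 0.032) and 0.79 ± 0.24 at 7 d (1.72-fold, adjusted p = 0.0277). The 12 h call ended without E21 array 2 or 3 or 12 h array 1 or 2 (adjusted p up to 0.138). The 1 d call ended without E21 array 2 or 3 or 1 d array 3 (adjusted p up to 0.136), and the 7 d call without E21 array 2 or 3 or 7 d array 1 or 3 (adjusted p up to 0.116).

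Mrpl38, a large-subunit protein specific to mitochondria, showed the change above 1 log2 unit that no other member reached in these comparisons. It had 9.34, 10.22 and 8.76 at 12 h, against 8.19, 8.40 and 8.47 at E21, so the groups did not overlap although the 12 h arrays were far apart (SD 0.73 at 12 h and 0.15 at E21). The change was 1.09 ± 0.26 (2.13-fold, adjusted p = 0.0208), and the call ended without E21 array 1 or 2 or 12 h array 1 or 2 (adjusted p up to 0.0698). At 1 d Mrpl38 had 9.04, 9.05 and 8.77, and at 7 d 8.79, 8.54 and 8.52, all above the E21 arrays, with changes of 0.60 ± 0.26 at 1 d (adjusted p = 0.233) and 0.27 ± 0.26 at 7 d (adjusted p = 0.557).

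Mrps17, a small-subunit protein with a bacterial counterpart, had 7.47, 7.42 and 7.15 at 12 h and 7.28, 7.44 and 7.34 at 1 d, against 6.85, 6.98 and 6.91 at E21. It was higher by 0.44 ± 0.11 at both ages (1.35-fold at 12 h and 1.36-fold at 1 d, adjusted p = 0.025 and 0.0276), and by 0.34 ± 0.11 at 7 d (adjusted p = 0.0313). Mrps6 had 6.62, 6.67 and 6.69 at 12 h, 6.30, 6.69 and 6.91 at 1 d and 6.52, 6.59 and 6.54 at 7 d, with changes from E21 of 0.52, 0.50 and 0.41 (SE 0.12 each, adjusted p = 0.0184, 0.0278 and 0.023). These small-subunit genes were therefore above E21 on every array from 12 h on. The Mrps17 calls ended without any single one of the E21 arrays or of 12 h arrays 1 and 2 (adjusted p up to 0.118), without any single one of the E21 and 1 d arrays (up to 0.0814), and at 7 d without E21 array 1 or 3 or 7 d array 1 or 3 (up to 0.108). The Mrps6 calls ended without E21 array 1 or 3, without any single 12 h array (adjusted p up to 0.0712), without 1 d array 2 or 3 (up to 0.113) and without 7 d array 2 or 3 (up to 0.0952).

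Mrpl21 had its highest age means at 12 h and 1 d. It had 9.58, 9.52 and 9.26 at 12 h and 9.44, 9.55 and 9.35 at 1 d, against 8.82, 8.96 and 9.21 at E21 (0.46 ± 0.12 and 0.45 ± 0.12, adjusted p = 0.0353 and 0.0423). At 7 d it had 9.04, 8.84 and 9.0, below every 1 d array, and it fell by 0.49 on the log2 scale (SE 0.12, adjusted p = 0.0106). Its 12 h call ended without E21 array 1 or 2 or 12 h array 1 or 2 (adjusted p up to 0.151), its 1 d call without E21 array 1 or 2 or any single 1 d array (up to 0.148), and the 7 d minus 1 d call without 7 d array 2 (0.0561). With the 3 arrays that stood apart left out, 1 member was higher and 2 lower than at E21 at 12 h, and 2 were higher and 1 lower at 1 d, in place of 5 higher and 0 lower at each of these ages.

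Mrpl57, a large-subunit protein specific to mitochondria, had its highest age mean at 1 d. It had 8.91, 8.76 and 9.27 at 1 d, against 8.05, 8.34 and 8.22 at E21, without overlap (0.78 ± 0.21, 1.71-fold, adjusted p = 0.0465). The call ended without any single one of the E21 arrays or 1 d array 1 or 3 (adjusted p up to 0.17). At 7 d it had 8.39, 7.94 and 8.34, which overlapped E21 and lay below every 1 d array, and it fell by 0.76 from 1 d (SE 0.21, adjusted p = 0.02, and up to 0.104 without 1 d array 3 or 7 d array 2).

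**Figure D2:**
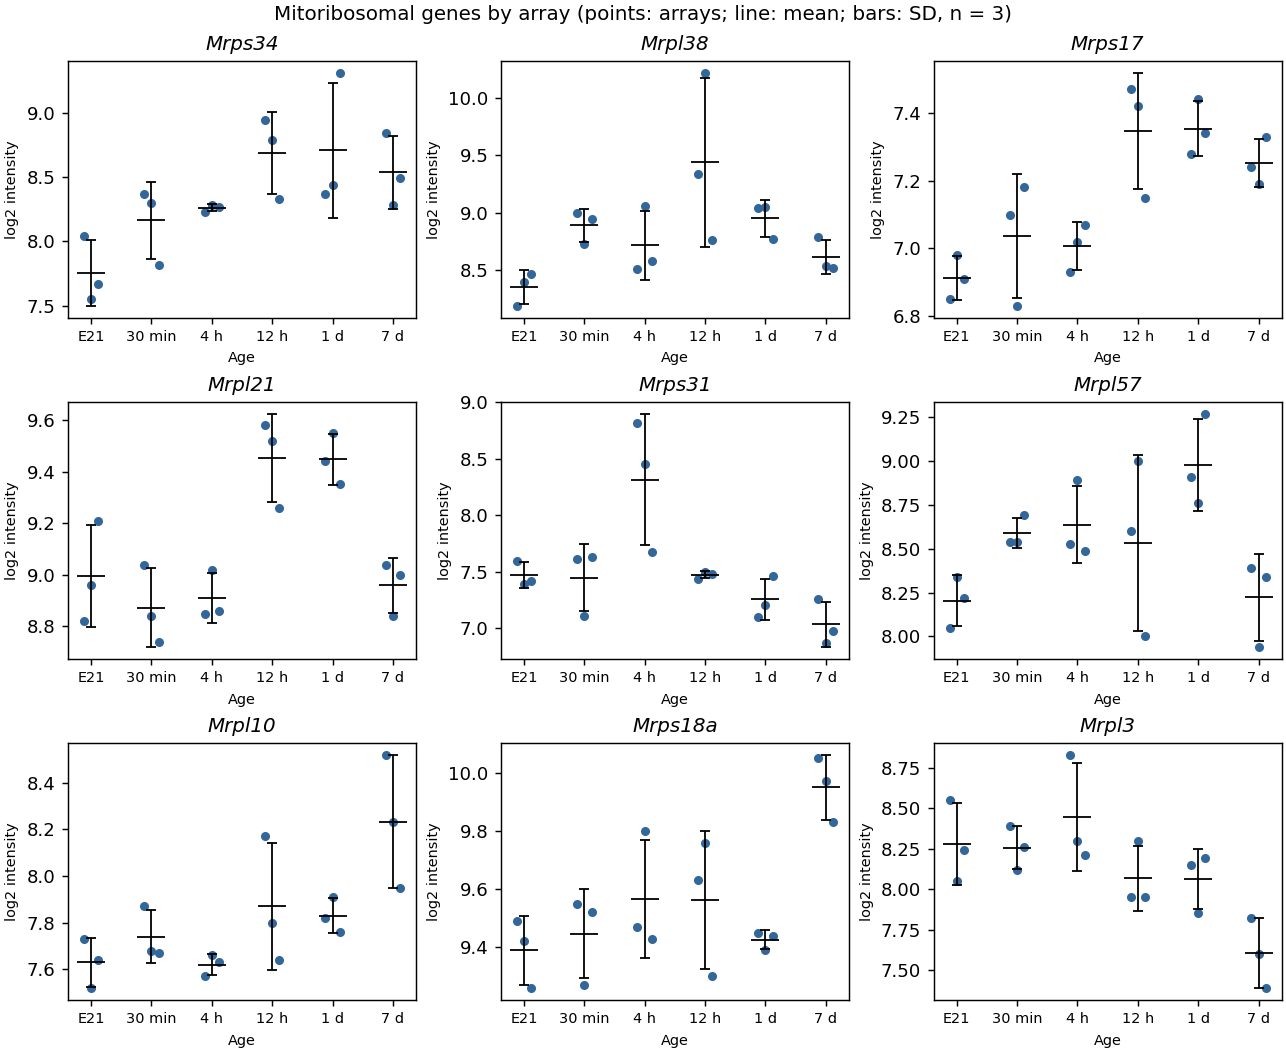
Log2 intensity (y axis) of 9 mitoribosomal genes at the 6 ages (x axis); points are single arrays, the horizontal line is the mean and bars are the SD of 3 arrays. Mrps31 stands out at 4 h, Mrpl38 at 12 h, Mrpl21 at 12 h and 1 d and Mrps18a at 7 d, while Mrpl3 has its lowest mean, 7.60, at 7 d.

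By 7 d, 11 members were higher than at E21 and 1 was lower, against 12.8% and 10.0% of all genes. The higher share of the members, 14.5%, lay near that of all 18926 genes, and the lower share, 1.32%, lay below it. No test was made of either difference. In the fit of genes with a mean log2 of at least 6, 11 of 69 members passed at 7 d (10 higher, 1 lower). In that fit 4091 of 10265 genes passed, in either direction. Without the 3 arrays that stood apart, 6 members were higher and 1 lower at 7 d. The higher members were Mrps34, Mrpl42-ps2, Mrpl42, Mrpl54, Mrpl10, Mrps18a, Mrps11, Mrpl58, Mrps6, Mrpl14 and Mrps17, with changes between 0.34 and 0.79. By subunit, 6 of 46 large-subunit genes were higher and 1 lower, with a median change of 0.15 and 32 positive differences. Of the 25 small-subunit genes, 4 were higher and 0 lower, with a median of -0.02 and 12 positive differences. By origin, 5 of 42 genes with a bacterial counterpart were higher and 1 lower (median 0.15), and 5 of 29 specific to mitochondria were higher and 0 lower (median 0.10).

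The stalk of the large subunit, which draws translation factors to the ribosome, was represented by Mrpl10 and Mrpl12. Mrpl10, the protein that anchors the stalk, had 8.52, 8.23 and 7.95 at 7 d, against 7.73, 7.52 and 7.64 at E21. The groups did not overlap, the change was 0.60 ± 0.14 (1.52-fold, adjusted p = 0.00586), and the adjusted p stayed at or under 0.0326 without any single array of the 2 ages. Mrpl12, the protein that Mrpl10 holds, had 7.41, 7.36 and 7.23 at 7 d, against 7.24, 6.82 and 7.29 at E21, which overlapped (0.22 ± 0.17, adjusted p = 0.441). Mrpl12 was measured at 7.56, 8.10 and 7.34 at 12 h, all above E21, with a change of 0.55 ± 0.17 (adjusted p = 0.0772).

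Mrps18a, which despite its name sits in the large subunit, had 10.05, 9.97 and 9.83 at 7 d, against 9.49, 9.42 and 9.26 at E21 and 9.45, 9.39 and 9.44 at 1 d. No array of 7 d overlapped either age. It was higher by 0.56 ± 0.13 than at E21 (1.47-fold, adjusted p = 0.00587) and by 0.52 ± 0.13 than at 1 d (1.43-fold, adjusted p = 0.0113). Both calls held without any single array of their ages, with adjusted p up to 0.0283 and 0.0448. Mrps30, the other protein of the large subunit with a small-subunit name, had 8.40, 7.82 and 8.14 at 7 d, against 8.33, 8.35 and 8.40 at E21, and passed no test (F test adjusted p = 0.374).

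Mrpl58, a peptidyl-tRNA hydrolase built into the large subunit that is known in human cells (as ICT1) for freeing stalled chains, had 9.80, 9.46 and 9.63 at 7 d, against 9.01, 8.90 and 9.40 at E21. The groups did not overlap (0.52 ± 0.16, 1.44-fold, adjusted p = 0.0275), and the call ended without E21 array 1 or 2 or 7 d array 1 or 3 (adjusted p up to 0.123). Mrpl54, specific to mitochondria, had 9.88, 9.62 and 9.93 at 7 d, against 8.80, 9.13 and 9.57 at E21 (0.64 ± 0.18, adjusted p = 0.0196), with the third E21 array just below the 7 d range. Its call ended without E21 array 1 or 2 or 7 d array 1 or 3 (adjusted p up to 0.106). Mrpl14, at the face that meets the small subunit, rose by 0.39 ± 0.13 (adjusted p = 0.0411), and the call ended without E21 array 1 or 2 or any single 7 d array (up to 0.162). Mrps11, a small-subunit protein with a bacterial counterpart, rose by 0.53 ± 0.16 (adjusted p = 0.0262), and the call ended without E21 array 1 or 2 or 7 d array 1 (up to 0.133).

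Mrpl42, a large-subunit protein specific to mitochondria and the brightest member, had 13.72, 13.08 and 13.10 at 7 d, against 12.90, 12.32 and 12.57 at E21. It rose by 0.71 ± 0.19 (1.63-fold, adjusted p = 0.015), and the call ended without E21 array 2 or 7 d array 1 (adjusted p up to 0.0781). The cluster with the symbol Mrpl42-ps2, a name given to a pseudogene, had 6.08, 5.64 and 6.26 at 7 d, against 5.19, 5.06 and 5.41 at E21. It rose by 0.77 ± 0.19 (adjusted p = 0.00744), with an adjusted p of at most 0.0406 without any single array. It is among the 3 dimmest members, and whether RNA of Mrpl42 bound its probes was not tested.

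The member that was lower at 7 d was Mrpl3, a protein of the core of the large subunit that contacts ribosomal RNA. It had 7.82, 7.60 and 7.39 at 7 d, against 8.55, 8.05 and 8.24 at E21. All 7 d arrays lay below all E21 arrays, and Mrpl3 fell by 0.68 on the log2 scale (SE 0.18, 1.6-fold lower, adjusted p = 0.0117). The call ended without E21 array 1 or 7 d array 3 (adjusted p up to 0.0637). Mrpl47, a large-subunit protein with a bacterial counterpart, had 7.74, 7.37 and 7.52 at 7 d, against 8.53, 7.74 and 8.15 at E21, with a change of -0.60 ± 0.25 that did not pass (adjusted p = 0.103).

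From 1 d to 7 d, 2 members were higher and 3 lower, against 8.15% and 10.0% of all genes. With quantile normalization there were 6 higher and 4 lower, with array medians subtracted 3 higher and 3 lower, and without the 3 arrays that stood apart 4 higher and 4 lower. Beside Mrps18a the higher gene was Mrps28 of the small subunit, with 6.28, 6.15 and 6.37 at 7 d, against 5.32, 5.95 and 5.58 at 1 d (0.65 ± 0.16, 1.57-fold, adjusted p = 0.00903, and at most 0.0449 without any single array). Its E21 arrays, with 5.98, 5.89 and 6.09, lay below the 7 d arrays and overlapped the highest 1 d array. Beside Mrpl21 and Mrpl57 the lower gene was Mrps10 of the small subunit, with 7.91, 8.06 and 7.78 at 7 d, against 8.22, 8.55 and 8.98 at 1 d. It fell by 0.67 (SE 0.18, adjusted p = 0.016), and the call ended without 1 d array 3 or 7 d array 3 (adjusted p up to 0.086). The 3 lower genes at 7 d thus had their highest or next highest age mean at 1 d.

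**Figure D3:**
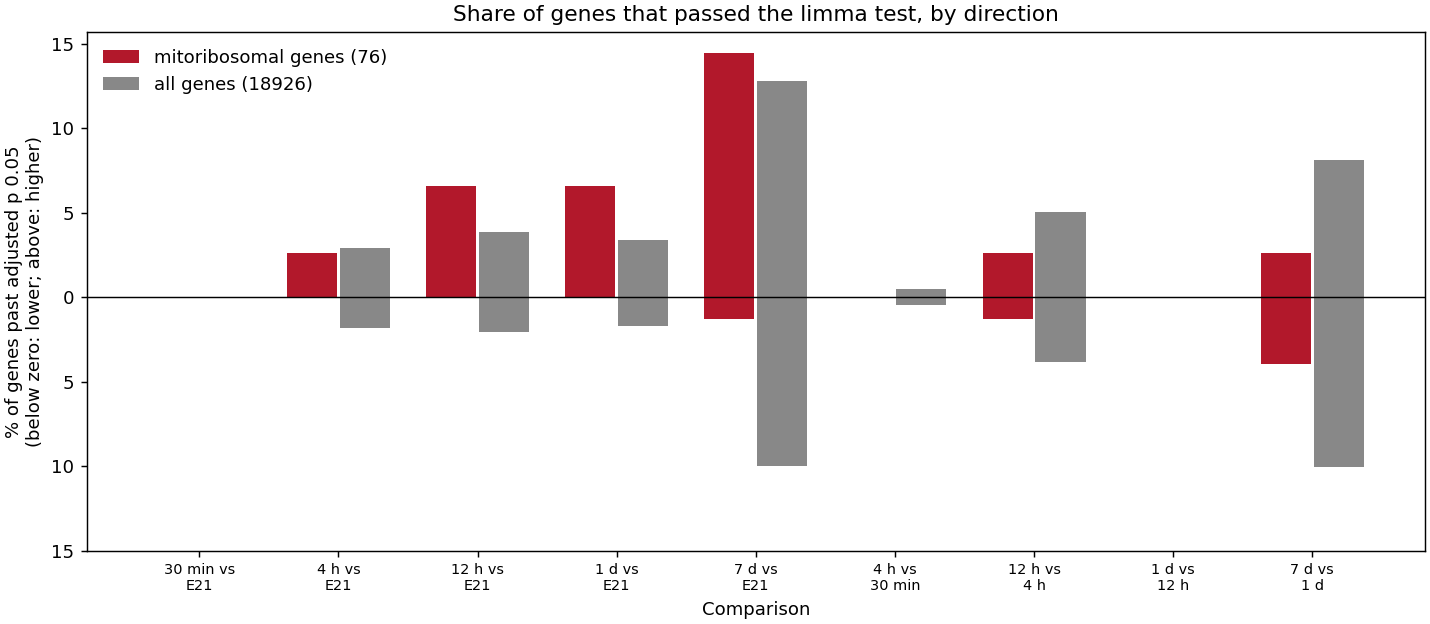
Bars above zero give the percentage of genes that were higher and bars below zero the percentage that were lower (limma, adjusted p under 0.05) in each of 9 comparisons, for the 76 mitoribosomal genes and for all 18926 genes. The bars of both sets are absent at 30 min against E21, and at 7 d the members have 14.5% higher and 1.32% lower, beside 12.8% and 10.0% of all genes.

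Cell type markers changed at 7 d, the age at which 12 members passed against E21. Of the erythroid list, 8 of 9 genes found were lower than at E21, by 5.28-fold (Tfrc) to 31.4-fold (Rhag). The ninth, Hba-a1, lay at the top of the intensity scale at every age and carried most of the list's summed intensity (1018147 to 1024317 at 7 d, against 1257151 to 1416341 at E21). Without it the sum was 18179 to 34255 at 7 d, against 257786 to 418568 at E21. The 4 megakaryocyte genes were lower (483 to 693 at 7 d, against 22243 to 32951 at E21), as were the 4 neutrophil genes (3926 to 12866, against 55391 to 132201) and 3 of 4 cell cycle genes (10218 to 17919, against 52668 to 81109). Higher at 7 d were 5 of 7 macrophage genes (40965 to 55258, against 17851 to 23244), 4 of 4 endothelial genes (45681 to 56715, against 16538 to 26419) and 2 of 4 stellate cell genes (18553 to 27935, against 7431 to 13465). Of 7 hepatocyte genes, Hnf4a (1.01) and Apoa1 (0.71) were higher and Cps1 (-1.0) was lower on the log2 scale. The hepatocyte sum was 3579829 to 3940832 at 7 d, against 3538199 to 3809495 at E21, and without Alb and Fgb, which lay within 0.1 log2 units of the highest value of the table, it was 1609163 to 1989687 at 7 d, against 1571859 to 1843155 at E21. The sums without these genes were added after the data were seen. Of 3 cholangiocyte genes, 0 passed. The part of these cell types in the 7 d changes of the members was not tested.

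Several members that are often used to stand for the mitoribosome were read whatever their values. Mrps12, at the decoding centre, had an F test adjusted p of 0.188, Mrps16 of 0.113, Mrps22 of 0.935, Mrpl44 of 0.655 and Mrpl12 of 0.11, against 0.0333 for Mrps34, 0.0207 for Mrpl3, 0.0446 for Mrpl58 and 0.0288 for Mrps18a. Mrps22 had 10.64, 10.22 and 10.46 at 7 d, against 10.25, 10.50 and 10.80 at E21. Mrps16 had 7.18, 6.91 and 6.72 at 7 d, against 6.58, 6.46 and 7.04 at E21, and both genes overlapped between these ages. Mrps12 and Mrpl44 averaged under 6 over the 18 arrays, as did 5 other members, where a change is harder to measure. Mrps18b and Mrpl53, the brightest members after Mrpl42, had F test adjusted p of 0.449 and 0.88, and the dimmest, Mrps18b-ps1, of 0.931.

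Of 5 further mitoribosomal proteins whose symbols fall outside the naming rule, 1 was lower at 7 d than at E21 and no other passed in any comparison. Dap3, Ptcd3, Chchd1 and Aurkaip1 belong to the small subunit and Gadd45gip1 to the large one. Ptcd3 (mS39), a protein with pentatricopeptide repeats at the entry of the messenger RNA, had 9.90, 9.40 and 9.39 at 7 d, against 10.69, 10.26 and 10.66 at E21, with no overlap. It fell by 0.98 on the log2 scale (SE 0.17, 1.97-fold lower, adjusted p = 0.000777). Dap3, Chchd1, Aurkaip1 and Gadd45gip1 did not pass the F test over the ages either (adjusted p = 0.31, 0.554, 0.51 and 0.837).

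Of 28 listed assembly factors, 3 were higher and 4 lower at 7 d than at E21 (10.7% and 14.3%, near the 12.8% and 10.0% of all genes), with a median change of 0.06 beside 0.01 for all genes. Oxa1l, the insertase that receives new chains at the inner membrane, had 12.87, 12.82 and 12.70 at 7 d, against 12.13, 11.63 and 11.99 at E21. It rose by 0.88 ± 0.15 (1.84-fold, adjusted p = 0.000431) and had already risen by 0.56 ± 0.15 at 12 h and 0.63 ± 0.15 at 1 d (adjusted p = 0.0321 and 0.0211). The 12 h call of Oxa1l ended without E21 array 2 or 3 or 12 h array 1 or 2 (adjusted p up to 0.157), and the 1 d call without E21 array 2 or 1 d array 1 or 2 (up to 0.112). The methyltransferase Tfb1m rose by 0.63 and Malsu1, which keeps the subunits apart until the large one is finished, by 0.35 (adjusted p = 0.0389 and 0.0357). These ended without any single 7 d array, without E21 array 2 for Tfb1m (adjusted p up to 0.182) and without E21 array 1 or 3 for Malsu1 (up to 0.175). The lower ones were Mdn1 (-1.15 ± 0.26, adjusted p = 0.00414), the RNA methyltransferase Mrm1 (-0.67), the GTPase Noa1 (-0.59) and Mettl15 (-0.38). The Mettl15 call ended without E21 array 2 or 3 or any single 7 d array (adjusted p up to 0.182), and the other 3 held without any single array of the 2 ages. Mdn1 is known for the assembly of cytosolic ribosomes and not of mitochondrial ones. Rcc1l, a guanine nucleotide exchange factor of the mitochondrion, rose by 0.74 ± 0.14 at 12 h (adjusted p = 0.00512) and 0.58 ± 0.14 at 1 d (adjusted p = 0.0258, and up to 0.126 without E21 array 2 or 3 or 1 d array 2 or 3). From 1 d to 7 d, 0 of the list were higher and 4 lower (14.3%, against 10.0% of all genes), with Mrm1 at -1.08 ± 0.15 (adjusted p = 0.000153).

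Of 16 mitochondrial aminoacyl-tRNA synthetases, 0 were higher and 4 lower at 4 h than at E21, and of 18 translation factors and related proteins 0 were higher and 3 lower. The lower shares were 25% and 16.7%, against 1.81% of all genes. The median changes at 4 h were -0.23 and -0.24 in these lists, beside -0.01 for all genes. Rars2 had 7.43, 7.29 and 7.86 at 4 h, against 8.39, 8.25 and 8.50 at E21 (-0.85 ± 0.19, adjusted p = 0.0178). The other lower synthetases were Lars2 (-0.58), Vars2 (-0.48) and Cars2 (-0.40). Taco1, the activator of translation of the Cox1 messenger RNA, had 6.11, 6.34 and 6.58 at 4 h, against 6.98, 6.83 and 7.11 at E21 (-0.63 ± 0.16, adjusted p = 0.031), and the release factor relative Mtrfr changed by -0.60 and Guf1 by -0.55. None of these 7 genes passed in the fit of the 2 ages, with or without the replicate block, with adjusted p up to 0.18 (Cars2). All 7 calls also ended without 4 h array 1 or 2 and without E21 array 3, with adjusted p up to 0.168 (Vars2). Those of Lars2 and Cars2 ended without E21 array 2 too, that of Mtrfr without E21 array 1, and those of Vars2, Taco1 and Guf1 without either of these. At 7 d Wars2, which charges the mitochondrial tRNA of tryptophan, had 8.99, 8.78 and 8.90, against 7.43, 7.90 and 8.07 at E21. It was the synthetase that rose, by 1.09 ± 0.22 (2.13-fold, adjusted p = 0.00227, and at most 0.0149 without any single array).

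Of 19 regulators of mitochondrial gene expression, 5 were higher and 0 lower at 4 h, and 0 were higher and 5 lower at 7 d, each 26.3%, against 2.91% of all genes higher at 4 h and 10.0% lower at 7 d. Their median change was 0.01 at 4 h and -0.30 at 7 d. Ppargc1a, a coactivator of nuclear genes for mitochondria that is known to respond to fasting and glucagon, had 13.31, 13.14 and 11.26 at 4 h, against 10.27, 8.71 and 8.78 at E21. The change was 3.32 ± 0.57 (9.95-fold, adjusted p = 0.00446). At 12 h it had 7.46, 8.05 and 7.64, which was lower than at 4 h by -4.85 ± 0.57 (adjusted p = 9.31e-05). Its relative Ppargc1b changed by 1.79 ± 0.36 at 4 h (adjusted p = 0.0102) and by -1.40 at 12 h, -1.50 at 1 d and -1.52 at 7 d (adjusted p = 0.0291, 0.0235 and 0.00556). Its 4 h call ended without E21 array 2 or 4 h array 2 (adjusted p up to 0.0638), its 12 h call without E21 array 1 or 3 or 12 h array 1 or 2 (up to 0.12), and its 1 d call without E21 array 1 or 3 or 1 d array 2 or 3 (up to 0.0899). Myc changed by 1.65 ± 0.44 at 4 h (adjusted p = 0.0461) and -1.95 ± 0.44 at 7 d (adjusted p = 0.00459), and its 4 h call ended without E21 array 2 or 3 or 4 h array 1 or 2 (up to 0.173). In the fit of 4 h and E21 alone, with or without the replicate block, none of these 3 passed at 4 h, with adjusted p up to 0.0854 for Ppargc1a, 0.105 for Ppargc1b and 0.0915 for Myc. The other regulators higher at 4 h were Pprc1 (0.65, limma adjusted p = 0.0413) and Tfb2m (0.64, adjusted p = 0.0227), and neither passed in that fit. The Pprc1 call ended without any single one of the 6 arrays (adjusted p up to 0.173). That of Tfb2m ended without E21 array 2 or 3 or 4 h array 1 or 2 (up to 0.116). The 12 h minus 4 h changes, -4.85 for Ppargc1a, -3.19 for Ppargc1b and -2.64 for Myc, passed in the fit of those 2 ages with and without the block.

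Tfam, which packages mitochondrial DNA, Polrmt, the polymerase that reads it, Gabpa and Esrra passed no F test (adjusted p = 0.562, 0.221, 0.252 and 0.908). Nrf1 was lower at 7 d by -0.56 ± 0.18 (adjusted p = 0.0382), Tfb2m by -0.52 and the helicase Twnk by -1.06. These calls ended without E21 array 1 or 7 d array 3, for Nrf1 also without E21 array 2 or 7 d array 2 (adjusted p up to 0.15) and for Twnk also without E21 array 3 or 7 d array 2 (up to 0.0838); for Tfb2m it was up to 0.0796. The 7 d call of Tfb2m also ended with the mean of all clusters of a gene and without the 3 arrays that stood apart. For Twnk the 7 d and E21 arrays overlapped. Ppargc1a had its highest mean at 4 h. At that age the median member differed from E21 by -0.01, and 2 of 76 members (2.63%) were higher, against 2.91% of all genes. In the fit of genes with a mean log2 of at least 6, 2 of 69 members and 1072 of 10265 genes passed at 4 h, in either direction. A relation between Ppargc1a and the members was not tested.

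**Figure D4:**
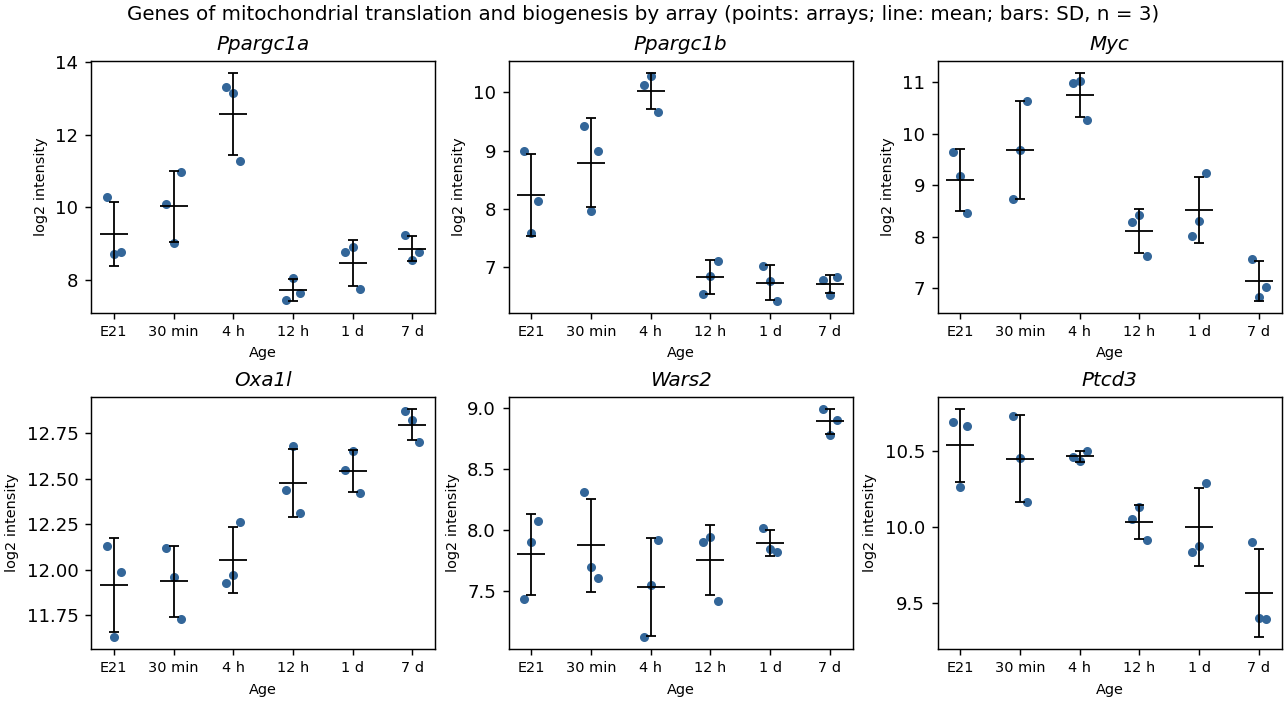
Log2 intensity (y axis) of 6 genes of mitochondrial biogenesis and translation at the 6 ages (x axis); points are single arrays, lines are means and bars are the SD of 3 arrays. Ppargc1a, Ppargc1b and Myc have their highest means at 4 h, Oxa1l and Wars2 at 7 d, and Ptcd3 has its lowest mean at 7 d.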

How the data were processed

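Total RNA of 18 liver samples was measured on Affymetrix Rat Transcriptome 1.0 arrays. The deposited table holds intensities per transcript cluster on a linear scale (4.24 to 999969). RMA and Affymetrix Expression Console 1.0 are named as the authors' tools, per the submitters' processing notes; the role of each, the annotation release and any filter are not given in the sources used here, and neither is detection above background. Of 24753 clusters, 19837 had 1 gene symbol, 420 several and 4496 none, from the platform annotation, with 1 symbol updated. The brightest cluster per gene gave 18926 genes, and all 76 members were found in RefSeq by Entrez ID.

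The log2 of the deposited intensities was fitted with limma 3.58.1 in R 4.3.3, with 1 mean per age over all 18 arrays (12 residual and 3.05 prior degrees of freedom), and p-values were two-sided and adjusted by Benjamini-Hochberg over all genes. They measure the spread between samples of separate dams, and 3 arrays per age limit the precision. The fit was tested on simulated data first. The labels give arrays replicate numbers with no stated meaning. Deviations of same-numbered arrays from their age means correlated at 0.107 to 0.292 between 4 h and E21 and at 0.15 to 0.298 between 12 h and 4 h, so the number was used as a block in those 2 comparisons; in the other 7 at least 1 pair was not over 0.1.

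Members were named where they passed, by size of change, up to 8 per direction and comparison, together with the 3 brightest, the 3 dimmest, the 5 of widest span and a set of well-known genes. Genes of other lists were named up to 3 per direction and comparison, with a set of well-known ones, and some further genes of these lists that passed were named after their values were seen. The members and lists were chosen with earlier results of these data known. The alternatives tried were a trended and robust prior, array weights, array medians subtracted, quantile normalization, a mean log2 of at least 6, the mean of all clusters of a gene, fits of the 2 ages only, the replicate block, each array left out and, chosen after seeing the data, 3 arrays left out together and the block in the 2-age fit. Promoters came from a RefSeq table of GRCr8; 17 members had no entry there. Protein sequences were not used here.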

Additional observations from a re-analysis of the deposited data

How the results depend on the processing

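None of the 32 member calls changed direction under any alternative run. Over all these fits the median change of the 76 members did turn sign in some comparisons, with a range of -0.06 to 0.03 at 30 min against E21, -0.04 to 0.06 at 4 h, -0.06 to 0.10 from 12 h to 1 d and -0.07 to 0.08 from 1 d to 7 d. Of the 32 member calls between ages, 5 held without any single array of their 2 ages (Mrpl42-ps2, Mrpl10 and Mrps18a at 7 d against E21, Mrps28 and Mrps18a at 7 d against 1 d). Under every other alternative in which the gene was fitted, 9 held. Among these 9, Mrpl42-ps2 and Mrps28 average under 6 and were not in the fit limited to a mean log2 of at least 6. Leaving out 1 of the 18 arrays gave 0 to 0 members at 30 min against E21, 0 to 3 at 4 h, 0 to 6 at 12 h, 0 to 5 at 1 d and 6 to 15 at 7 d. It gave 0 to 1 from 30 min to 4 h, 0 to 4 from 4 h to 12 h, 0 to 0 from 12 h to 1 d, 3 to 7 from 1 d to 7 d and 7 to 17 by the F test. Over all genes these fits called 0 to 8 at 30 min against E21 and 274 to 1371 at 4 h. The ranges were 620 to 1196 at 12 h, 425 to 1101 at 1 d and 3228 to 4481 at 7 d. From 30 min to 4 h they were 46 to 438, and from 4 h to 12 h 883 to 1788. From 12 h to 1 d they were 3 to 12, and from 1 d to 7 d 2276 to 3567. By the F test the range was 4539 to 5999. The lowest counts of members came without 12 h array 1 or 2 (0 at 12 h, where array 1 also gave 0 from 4 h to 12 h), without 1 d array 3 (0 at 1 d), without 7 d array 1 or 3 (6 at 7 d) and without 4 h array 1 or 7 d array 1 (7 by the F test).

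Array weights gave 4 members at 4 h (2 higher, 2 lower), 10 at 12 h (9 higher, 1 lower), 1 from 30 min to 4 h (higher), 15 from 4 h to 12 h (13 higher, 2 lower) and 27 by the F test. The counts over all genes grew as well with array weights: 2244 in place of 892 at 4 h, 2217 in place of 1124 at 12 h, 1181 in place of 186 from 30 min to 4 h, 3888 in place of 1684 from 4 h to 12 h and 8077 in place of 5931 by the F test. Quantile normalization gave 10 from 1 d to 7 d (6 higher, 4 lower). Without E21 array 1, 30 min array 3 and 4 h array 3 there were 3 members at 12 h (1 higher, 2 lower), 3 at 1 d (2 higher, 1 lower), 7 at 7 d (6 higher, 1 lower), 1 from 30 min to 4 h (higher) and 8 from 1 d to 7 d (4 higher, 4 lower). Over all genes that fit called 1111 at 12 h and 982 at 1 d, beside 1124 and 961 with every array. Fits of the 2 ages alone gave 0 at 4 h, 2 at 12 h (higher), 0 at 1 d and 0 from 4 h to 12 h, with fewer arrays to estimate the spread; over all genes they called 139, 784, 297 and 1080. The replicate number as a block in the fit of all arrays gave 3 at 1 d (higher), and in the 2-age fit 0 at 4 h and 0 from 4 h to 12 h; it moved no other count of members by over 1.5 times. The other causes were not tested. The median change of the members at 7 d lay between 0.06 and 0.16 over all these settings, and at 12 h between 0.01 and 0.16. The 7 members with a mean under 6 lie where background limits what a change can show.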

Other observations

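The 35 members whose promoter held NRF1, GABPA or YY1 letters had a median change of 0.12 at 7 d against E21, with 5 higher and 1 lower, and the 24 with none of the 3 had a median of 0.12, with 4 higher and 0 lower. Of all genes, 12.8% were higher and 10.0% lower in that comparison. At 12 h against E21 the medians were 0.09 with such letters and 0.04 without, and at 4 h they were -0.05 with such letters and 0.00 without. These groups were not compared by a test.

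Mrpl1 and Mrpl36 were each measured by 2 clusters. The brighter Mrpl1 cluster averaged 10.10 at E21, 9.44 at 4 h, 9.47 at 12 h and 10.08 at 7 d, and the dimmer one 9.54 at E21, 9.10 at 4 h, 8.96 at 12 h and 9.42 at 7 d. Every 4 h and 12 h array of the brighter cluster lay below every E21 array, with changes of -0.65 ± 0.23 and -0.62 ± 0.23 that did not pass (limma adjusted p = 0.138 and 0.152). Mrps27, a small-subunit protein specific to mitochondria, passed the F test (adjusted p = 0.0451) and no comparison between ages, with 8.68, 8.59 and 8.58 at 1 d, against 8.74, 9.31 and 9.65 at E21. These genes were chosen after their values were seen.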
